A study of Homo sapiens with 2 samples.

Results

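The genes for the subunits of RNA polymerases I, II and III and for the general transcription factors were examined in nascent RNA of untreated BJ cells, a human fibroblast line established from skin. Members were chosen by symbol alone, namely symbols beginning POLR1, POLR2, POLR3, GTF2, GTF3 or TAF followed by a digit, together with TBP. This gave 73 of the 12353 genes in the table, and all 73 are protein-coding in RefSeq. Of the 97 RefSeq protein-coding genes that meet the rule, 24 have no value. They are 13 members of the TAF11L family, TAF9, TAF15, TAF1L, TAF7L, GTF2A1L, GTF2H2, GTF2H2C_2, GTF2H5, GTF2I, GTF2IRD2 and GTF2IRD2B. The table holds no value of 0, and 151 of its identifiers have no current symbol, so a gene without a value is described only as having none.

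The data are from global run-on sequencing (GRO-seq), in which polymerases caught in the act of transcription resume in isolated nuclei with a brominated nucleotide, and the RNA so labelled is captured and sequenced. The signal reports engaged polymerase and not the amount of mRNA or protein. There were 2 libraries, described in the labels as biological replicates, from 1 cell line in 1 condition (medium with 10% fetal calf serum, run-on of 5 min at 30 °C). The letters a and b that name these libraries come from the table's columns. Values are FPKM, fragments per kilobase of gene scaled to library size, given per library in the order a and b or as mean ± SD (n = 2). All 10 fibroblast markers examined had values, with medians of 106 and 101 FPKM. The lowest was DCN, at 6.99 and 7.69 FPKM, below the median of all genes in each library (11.76 and 11.7 FPKM). Among 11 markers of epithelial, endothelial and white blood cells the single one with a value was CDH1, at 1.48 and 1.5 FPKM. Read depth is unknown. With 1 group of 2 libraries an exact sign-flip test cannot go below p = 0.5, so no p-value is given and differences are read against the spread between the libraries.

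Eukaryotic nuclear genes are divided among these enzymes. Polymerase I makes the large ribosomal RNA precursor, polymerase II makes messenger RNAs and many small nuclear RNAs, and polymerase III makes transfer RNAs, the smallest ribosomal RNA and other short RNAs. Each enzyme is built on a pair of large catalytic subunits, and some smaller subunits are used by more than 1 of the enzymes. General factors bring them to promoters: TFIID, made of TBP and TBP-associated factors (TAFs), with TFIIA, TFIIB, TFIIE, TFIIF and TFIIH for polymerase II, SL1 for polymerase I, and TFIIIA, TFIIIB and TFIIIC for polymerase III. All the genes described here are themselves read by polymerase II.

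As a whole the machinery lay modestly above the typical gene. The 73 members had a median of 15.0 FPKM, 1.28 times the median of all genes (11.7 FPKM), and ranged from 1.93 FPKM for TAF4B to 149 FPKM for TAF1D. Of the 73, 46 were above the median of each library in both libraries (63.0%, against 47.6% of all genes), and 25 were below it in both (34.2%, also against 47.6%). Among those 46, 25 were in the top 25% of genes in both libraries (34.2% of the 73, against 23.4% of all genes). By name, the 21 TAF and TBP genes had a median of 23.2 FPKM and the 19 GTF genes 13.55 FPKM, and the other 33 members were polymerase subunit genes. The members were spread almost as widely as the genome: the SD of log2(FPKM + 0.1) was 1.34 among members and 1.46 among all genes. The sources used here do not say by which length each count was divided, and levels of different genes depend on it. Nor do they say whether counting used strand, so reads of an overlapping gene may enter a value. On the GRCh38 annotation, with strand ignored, 42 of the 73 members overlap another gene that is not a small RNA gene. For 25 of these 42 it is a protein-coding gene. Members such as POLR2D, POLR1A, POLR3B and TAF1 overlap only genes of other classes. A small RNA gene lies within the span of 11 members. Besides those named with their values below, the members overlapping a protein-coding gene include POLR1G, POLR3G, TAF1C, TAF4, TAF5, TAF6, TAF6L, TAF11, GTF2E2, GTF2F2, GTF3A and GTF3C5.

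The promoters of these genes were looked up in RefSeq sequence (GRCh38.p14, 250 bases before to 50 bases after the annotated start), where 61 of the 73 members and 9936 of all genes in the table were found. All 61 had a ratio of observed to expected CpG dinucleotides over 0.6, against 81.7% of all genes, although their median GC content (60.0%) was below that of all genes (65.0%). Both strands were searched for 5 motifs. The element bound by TBP was spelled TATAAA, the box bound by NF-Y was spelled CCAAT, and the GC box of SP factors was spelled GGGCGG. The core of sites for ETS factors was spelled CCGGAAG and the site of YY1 was spelled AAGATGGCG. Letters of different motifs overlapped in 0 of the 61 promoters. The ETS letters were in 29 of 61 member promoters (47.5%), against 22.4% of the 8118 promoters with a CpG ratio over 0.6 and 19.5% of all 9936. Within 50 bases of the start on either side they were in 20 of 61 (32.8%), against 13.3% of CpG-rich and 11.6% of all promoters. YY1 letters were in 6 of 61 (9.84%), against 4.74% of CpG-rich and 4.02% of all promoters, so for both motifs the share was over 2 times that of either comparison set. CCAAT was in 21 of 61 (34.4%, against 36.8% of all). GC boxes were fewer, in 36 of 61 (59.0%, against 69.7%). TATAAA was found in 4 of 61 (6.56%, against 5.58%). Members with and without the ETS letters had median levels of 13.55 and 15.3 FPKM, whereas over all genes those with the letters had 14.7 and those without 11.2 FPKM. A match is a string of letters and not evidence that a factor binds.

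**Figure D1:**
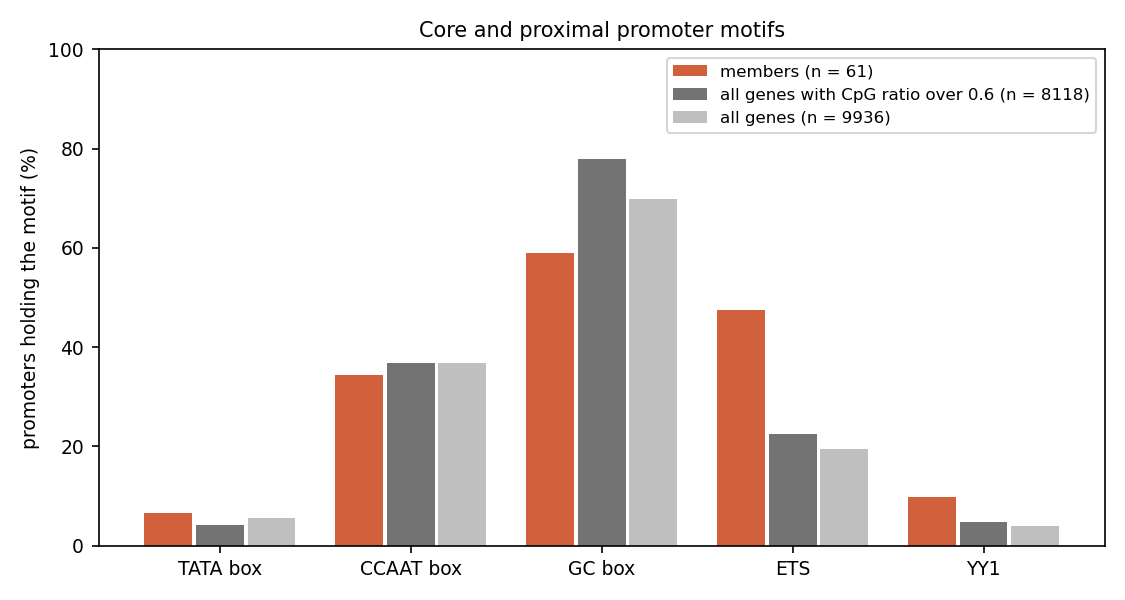
Percentage of promoters (vertical axis, from 0) holding each of 5 motifs on either strand within 300 bases, for 61 polymerase and general factor genes, for 8118 measured genes with a CpG ratio over 0.6, and for all 9936 measured genes with a promoter sequence. The ETS and YY1 bars of the members, at 47.5% and 9.84%, are over 2 times those of either comparison set, while their GC box bar is the lowest of the 3.

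The first group of sequences shows the TFIIIC subunit genes found with ETS letters near the start, and GTF3C5, which has none within 300 bases. Each runs 5′ to 3′ on the gene's strand from 70 bases before the start to 30 bases from it on, with matches to any of the 5 motifs in capitals.
GTF3C2 (chr2:27356735-27356834, minus strand): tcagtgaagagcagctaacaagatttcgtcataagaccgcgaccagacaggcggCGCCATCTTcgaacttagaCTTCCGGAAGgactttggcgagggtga
GTF3C3 (chr2:196799654-196799753, minus strand): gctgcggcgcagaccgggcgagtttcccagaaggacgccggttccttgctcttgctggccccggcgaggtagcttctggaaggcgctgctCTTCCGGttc
GTF3C4 (chr9:132669965-132670064, plus strand): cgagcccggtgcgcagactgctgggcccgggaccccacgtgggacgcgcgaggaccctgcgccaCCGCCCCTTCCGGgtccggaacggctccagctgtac
GTF3C5 (chr9:133030927-133031026, plus strand): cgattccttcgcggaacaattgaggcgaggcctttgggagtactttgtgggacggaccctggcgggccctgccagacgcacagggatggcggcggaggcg
In GTF3C2 the reverse letters of YY1 lie before the start, and a palindrome after it matches the ETS letters on both strands. In GTF3C4 a GC box on the opposite strand runs directly into ETS letters at the start itself. Counting GTF3C1 and GTF3C6, whose ETS letters lie farther upstream, 5 of the 6 TFIIIC genes hold them, against 47.5% of members and 19.5% of all promoters. This is not particular to TFIIIC, as TAF1A, TAF1B, TAF1C and TAF1D of SL1 all hold them. Nor is it particular to TFIIIC and SL1. GTF2A1 and GTF2A2 of TFIIA hold them, as do GTF2H1, GTF2H3 and GTF2H2C of TFIIH, but not GTF2H4. In TFIIF, GTF2F1 holds them and GTF2F2 does not. Of the specific subunit promoters found, 2 of 4 for polymerase II, 2 of 7 for polymerase III and 1 of 5 for polymerase I did. It was 4 of 11 for TFIID and 1 of 4 for the subunits shared by all 3 enzymes.

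The second group shows the same letters in genes of other complexes, at levels from 13.2 FPKM (GTF2A1) to 149 FPKM (TAF1D).
TAF12 (chr1:28643038-28643137, minus strand): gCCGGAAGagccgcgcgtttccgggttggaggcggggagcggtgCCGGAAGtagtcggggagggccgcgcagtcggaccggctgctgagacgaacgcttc
TAF13 (chr1:109075974-109076073, minus strand): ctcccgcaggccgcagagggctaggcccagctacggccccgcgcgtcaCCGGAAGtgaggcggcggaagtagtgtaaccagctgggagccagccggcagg
TAF1D (chr11:93741466-93741565, minus strand): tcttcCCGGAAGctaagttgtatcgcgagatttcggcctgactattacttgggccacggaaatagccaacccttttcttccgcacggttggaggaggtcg
GTF2A1 (chr14:81221361-81221460, minus strand): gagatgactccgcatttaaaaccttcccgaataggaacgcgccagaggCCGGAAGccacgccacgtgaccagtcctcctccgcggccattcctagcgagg
GTF2H1 (chr11:18322497-18322596, plus strand): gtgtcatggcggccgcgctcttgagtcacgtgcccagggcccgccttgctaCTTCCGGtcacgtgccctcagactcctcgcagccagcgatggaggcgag
TAF12 carries the letters at 2 places before the start, and in TAF13, GTF2A1 and GTF2H1 a single match lies close before the start.

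The last group sets the promoters of POLR2L and TAF10, which had the highest levels after TAF1D, beside that of GTF2B.
POLR2L (chr11:842500-842599, minus strand): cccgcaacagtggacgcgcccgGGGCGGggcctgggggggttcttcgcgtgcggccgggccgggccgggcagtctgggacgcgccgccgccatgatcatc
TAF10 (chr11:6612187-6612286, minus strand): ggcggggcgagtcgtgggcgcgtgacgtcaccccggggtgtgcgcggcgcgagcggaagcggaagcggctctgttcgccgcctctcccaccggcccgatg
GTF2B (chr1:88891538-88891637, minus strand): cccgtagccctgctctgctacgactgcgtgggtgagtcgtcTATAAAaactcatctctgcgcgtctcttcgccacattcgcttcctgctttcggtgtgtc
Neither POLR2L nor TAF10 has TATAAA in its window. GTF2B, which encodes TFIIB, the factor that bridges TBP and the polymerase, is the 1 member of 61 with TATAAA on its own strand where a TATA box is usually found, 29 bases before the start. Among all genes 1.87% had it in that interval.

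Of the 3 enzymes, polymerase II had the highest median over its specific subunit genes. Its 7 specific subunits had medians of 37.0 FPKM in library a and 40.35 FPKM in library b. POLR2A, the largest subunit, whose carboxy-terminal repeats are phosphorylated through the transcription cycle, stood at 38.0 and 41.4 FPKM. POLR2B, the second catalytic subunit, was at 37.0 and 40.35 FPKM, so the values of the catalytic pair overlapped between libraries. The span of POLR2B overlaps IGFBP7, whose part in the value was not tested. POLR2C, a member of the heterodimer that starts assembly of the enzyme, was at 49.6 and 57.35 FPKM, while its partner POLR2J was at 15.3 and 16.7 FPKM, and their spans overlap DOK4 and LRWD1. POLR2I, a subunit near the jaw that bears on transcript fidelity, was at 34.4 and 34.1 FPKM and overlaps OVOL3. The stalk subunits differed most: POLR2D had 10.75 and 12.5 FPKM, against 70.2 and 78.6 FPKM for its partner POLR2G, a log2 ratio of -2.67 ± 0.0389, with POLR2G 6.36-fold higher. POLR2D sat at the median of all genes. Of the 7, 6 were above the median of all genes in both libraries (against 47.6% of all genes) and 5 were in the top 25% in both (against 23.4%).

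The paralogues and the associated factor of polymerase II were low. POLR2J3 (6.53 ± 0.219 FPKM) and POLR2J2 (3.95 ± 0.375 FPKM) are near-identical copies of POLR2J, so reads of the 3 genes may be divided among them and these values are uncertain. POLR2M, which encodes an inhibitor bound to a fraction of polymerase II, was at 3.82 ± 0.403 FPKM, and its locus is annotated together with the read-through gene GCOM1. All 3 lay below the median of all genes in both libraries, as did 47.6% of all genes.

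The 5 subunits used by all 3 enzymes covered a 22.5-fold range, against 77.4-fold for all members. POLR2L, part of the assembly platform, had 149 and 148 FPKM, at percentile 98.7 of all genes. POLR2H was at 77.3 and 78.9 FPKM and POLR2K at 36.8 and 41.0 FPKM. These 3 were in the top 25% of genes in both libraries, where 23.4% of all genes were found. POLR2F had 12.2 FPKM in each library, close to the median gene, and its annotated span overlaps SOX10 and C22orf23. POLR2E was lowest at 7.56 and 5.64 FPKM, 22.5-fold below POLR2L, and overlaps ARHGAP45. The shared median differed from that of polymerase II by less than the spread between libraries, at 36.8 and 41.0 FPKM for the shared subunits, against 37.0 and 40.35 FPKM for the polymerase II-specific subunits, a log2 difference of 0.0084 ± 0.0212 that changed sign between libraries. That closeness rests on a median of only 5 genes. Without POLR2F, whose span holds 2 small RNA genes, the shared median was 58.5 FPKM and the log2 difference 0.51. Removing POLR2E instead, whose span holds no small RNA gene, would shift the median alike, so the shift is not particular to POLR2F.

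By median, polymerase I subunit genes were transcribed at lower levels than those of polymerase II. The 6 specific to it had medians of 14.3 and 13.9 FPKM, against 37.0 and 40.35 FPKM for polymerase II, a log2 difference of -1.46 ± 0.113. This SD, as for every difference between complexes given here, is over the libraries and not over the genes. Among genes the SD of log2(FPKM + 0.1) was 1.13 for polymerase I and 0.94 for polymerase II, and their ranges overlapped. It was 1.07 for polymerase III, 1.58 for TFIID, 1.03 for TFIIIC and 1.85 for the subunits shared by all 3 enzymes. The catalytic subunits were compared one by one. POLR1A, the largest subunit, had 16.2 and 15.0 FPKM, against 38.0 and 41.4 FPKM for POLR2A, with POLR2A 2.53-fold higher. POLR1B had 12.3 and 12.7 FPKM, against 37.0 and 40.35 FPKM for POLR2B, with POLR2B, which overlaps IGFBP7, 3.07-fold higher. In both libraries the polymerase I gene was the lower of each pair. POLR1H, a small subunit needed for cleavage of the transcript in stalled enzyme, was the highest at 46.0 and 48.4 FPKM, and overlaps PPP1R11. POLR1E, at 33.2 and 32.4 FPKM, and POLR1G, at 10.25 and 11.4 FPKM, encode the partners of a heterodimer that resembles TFIIF. POLR1F, a stalk subunit, was lowest at 5.64 and 4.93 FPKM.

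The subunits shared by polymerases I and III are a heterodimer equivalent to POLR2C and POLR2J, and both genes are known from Treacher Collins syndrome. POLR1C had 46.0 and 45.5 FPKM, against 9.97 and 9.84 FPKM for POLR1D, a log2 ratio of 2.20 ± 0.0019. POLR1C was thus 4.59-fold above its partner, while each gene differed by 1.01-fold between libraries. The span of POLR1C overlaps XPO5 and holds the small RNA gene LOC124901522, and that of POLR1D overlaps LNX2. Their part in the values was not tested.

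The 10 subunits specific to polymerase III lay between those of polymerases I and II, with medians of 17.4 and 18.2 FPKM. The log2 difference was -1.11 ± 0.0394 from polymerase II and 0.35 ± 0.0737 from polymerase I. The sign of the second did not hold when the mean of the members' log2 values replaced the median, where it was -0.0302. POLR3A, the largest subunit, had 18.75 and 18.9 FPKM, against 16.2 and 15.0 FPKM for POLR1A, while POLR3B had 10.4 and 10.8 FPKM, against 12.3 and 12.7 FPKM for POLR1B. So the largest subunit was higher for polymerase III and the second was higher for polymerase I, by 1.20-fold and 1.18-fold. Both stood below their polymerase II equivalents, with POLR2A 2.10-fold above POLR3A and POLR2B 3.62-fold above POLR3B.

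POLR3G and POLR3GL encode alternative forms of a single subunit, of which POLR3G is known for its expression in stem cells and tumour cells. POLR3G had 10.9 and 6.91 FPKM, against 46.3 and 49.5 FPKM for POLR3GL, a log2 ratio of -2.45 ± 0.525. In these fibroblasts POLR3GL was the higher form in both libraries, 5.47-fold on average. The partners of this subunit in a dissociable trimer, POLR3C and POLR3F, were at 28.1 ± 3.41 and 11.1 ± 0.0849 FPKM. POLR3E (28.1 ± 2.87 FPKM) and POLR3D (22.8 ± 0.806 FPKM), the heterodimer that resembles TFIIF, were both above the median gene. POLR3K, which is used in termination and transcript cleavage, was the lowest polymerase subunit gene by mean at 3.99 and 2.85 FPKM, percentile 10.4 of all genes, although its values overlap those of the paralogue POLR2J2 (3.68 and 4.21 FPKM). Its counterpart in polymerase I, POLR1H, was among the highest, a contrast chosen after their values were seen.

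**Figure D2:**
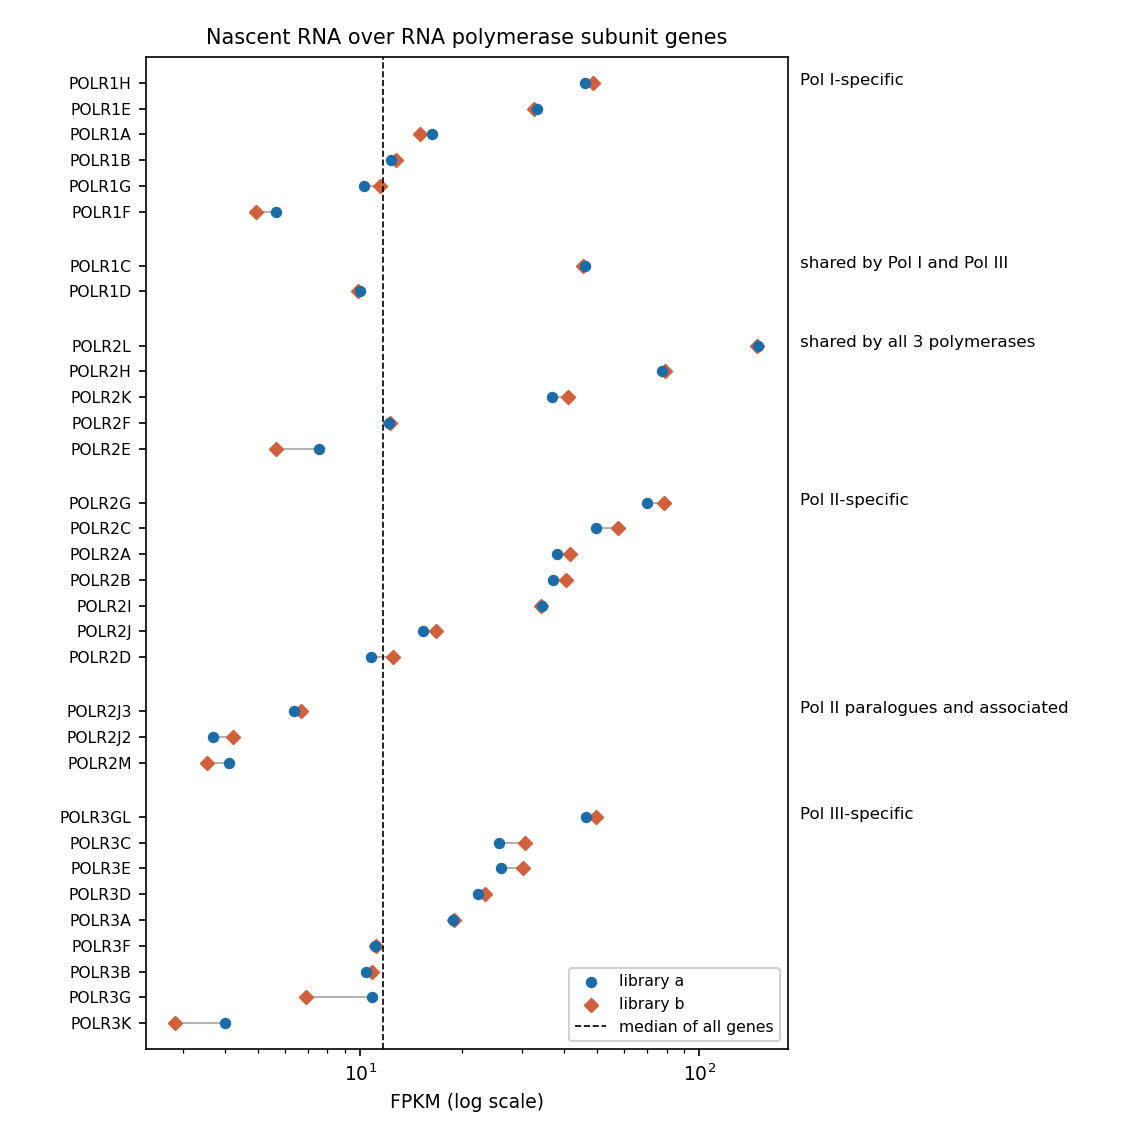
FPKM (horizontal log axis) of polymerase subunit genes in library a (circles) and library b (diamonds), grouped by enzyme, with the median of all genes (11.7 FPKM) dashed. Polymerase II-specific subunits other than POLR2D lie to the right of the line in both libraries, the shared subunits run from 5.64 (POLR2E) to 149 FPKM (POLR2L), and POLR3K in library b is the leftmost point.

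TFIID genes had the widest range of the complexes compared, 41.6-fold between the highest and the lowest of 13 measured subunits, with medians of 22.1 and 25.6 FPKM. Set against polymerase II-specific subunits the log2 difference was -0.70 ± 0.0606. TBP, the subunit that binds and bends the TATA element and serves all 3 polymerases, was at 22.1 and 24.3 FPKM. TAF10 was highest at 112 and 132 FPKM, percentile 98.3 of all genes, and overlaps ILK. TAF3, which reads a trimethylated lysine of histone H3 at active promoters, was lowest at 3.31 and 2.56 FPKM. Of the 13, 8 were above the median gene in both libraries (61.5%, against 47.6% of all genes), and 5 were below it in both (also against 47.6%). The lowest single value among the 8 was 21.6 FPKM in TAF11.

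Many TAFs pair through histone folds, and the levels of such partners are set side by side here. These pairs were set out after their values were seen, so they are a description. TAF10 pairs with either TAF3 or TAF8, and TAF8 was at 6.52 and 6.41 FPKM. TAF12, at 43.7 and 37.1 FPKM, pairs with TAF4, at 5.16 and 4.50 FPKM. TAF13, at 77.25 and 76.6 FPKM, pairs with TAF11, at 21.6 and 25.6 FPKM. In each of these couples the values of the partners did not overlap, as in 93.1% of all pairs of genes in the table. TAF6, whose partner TAF9 had no value, was at 27.2 ± 1.33 FPKM, and the TAF9 paralogue TAF9B was at 38.4 ± 1.90 FPKM. TAF5, a WD-repeat subunit, was at 25.9 ± 3.84 FPKM. TAF1, the largest subunit and a scaffold of the complex, had 8.10 and 7.66 FPKM, while TAF7, which binds it, had 41.55 and 47.1 FPKM. TAF2, which contacts the initiator together with TAF1, was at 10.3 FPKM in each library.

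The TAF paralogues did not stand on one side of their relatives. TAF4B, known for its role in germ cells, had 1.47 and 2.39 FPKM, against 5.16 and 4.50 FPKM for TAF4, a log2 ratio of -1.31 ± 0.607, and was the lowest member of all. TAF5L had 10.75 and 8.46 FPKM, against 23.2 and 28.6 FPKM for TAF5, a log2 ratio of -1.43 ± 0.455. TAF6L had 44.2 and 45.9 FPKM, against 26.3 and 28.15 FPKM for TAF6, a log2 ratio of 0.73 ± 0.0311. TAF5L and TAF6L are parts of the coactivator SAGA, which uses them in place of TAF5 and TAF6, and of the 2 SAGA forms the first was lower and the second higher than its TFIID relative in both libraries.

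SL1, the factor that brings polymerase I to ribosomal DNA, joins TBP with TAF1A, TAF1B, TAF1C and TAF1D. TAF1D was the highest of all 73 members, at 144 and 155 FPKM. Its annotated span holds 9 small RNA genes, namely MIR1304, SNORA1, SNORA8, SNORA18, SNORA25, SNORA32, SNORA40, SNORD5 and SNORD6, and overlaps CEP295. Their part in the value was not tested. The others were at or below the median gene: TAF1B, which resembles TFIIB, at 10.1 and 12.0 FPKM, TAF1C at 7.86 and 7.31 FPKM, and TAF1A at 6.33 and 8.05 FPKM. The median of SL1 was 9.32 FPKM with TAF1D and 7.59 FPKM without it.

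The other polymerase II initiation factors were transcribed within a narrow band around the typical gene. The 11 measured genes of TFIIA, TFIIB, TFIIE, TFIIF and TFIIH ranged from 6.90 FPKM to 22.5 FPKM, a 3.26-fold range with an SD of 0.46 in log2(FPKM + 0.1), against 1.34 for all members. Of the 11, 8 were above the median of all genes in both libraries (72.7%, against 47.6% of all genes). In the top 25% in both there were 0 of the 11, where 23.4% of all genes were found. GTF2B had 11.3 FPKM in each library. GTF2E1 had 13.75 and 14.5 FPKM, against 13.01 and 13.67 FPKM for its TFIIE partner GTF2E2, so the partners were within 1.06-fold. The lower value of GTF2E1 was just above the higher value of GTF2E2. GTF2F1 had 18.85 and 17.5 FPKM, against 10.1 and 10.9 FPKM for GTF2F2, the other subunit of TFIIF, which escorts the polymerase to the promoter. GTF2A1 had 13.05 and 13.3 FPKM, against 21.2 and 23.8 FPKM for GTF2A2, the small subunit of TFIIA, which steadies TBP on DNA. The log2 ratios were 0.78 ± 0.158 for TFIIF and -0.76 ± 0.0948 for TFIIA. Of the TFIIH core, which opens the promoter and also works in nucleotide excision repair, GTF2H1 (19.2 ± 1.36 FPKM), GTF2H4 (15.0 ± 1.22 FPKM) and GTF2H3 (12.9 ± 1.13 FPKM) lay above the median gene, and GTF2H2C, a near copy of GTF2H2 with an uncertain value, lay below it (6.90 ± 0.375 FPKM). GTF2IRD1, a TFII-I family gene of the Williams syndrome region and not a basal factor, was at 4.38 and 3.62 FPKM.

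TFIIIC genes were alike except for one. TFIIIC binds the internal promoters of transfer RNA genes. Its 6 genes had medians of 14.4 and 14.2 FPKM. GTF3C6, the smallest subunit, was at 74.4 and 74.8 FPKM, percentile 96.4 of all genes. Its span holds the small RNA gene LOC124901533, whose part in the value was not tested. The other 5 stood between 9.99 and 17.2 FPKM, with an SD of 0.28 in log2(FPKM + 0.1), a separation made after the values were seen. They were GTF3C2 (16.5 and 17.9 FPKM), GTF3C4 (14.7 and 14.7 FPKM), GTF3C1, the largest subunit, which contacts the B box (14.0 and 13.1 FPKM), GTF3C5 (13.25 and 13.8 FPKM) and GTF3C3 (10.8 and 9.16 FPKM). The TFIIIC median was below that of TFIID, with a log2 difference of -0.73 ± 0.160, and below that of polymerase III, with -0.31 ± 0.0602. With the mean of the members' log2 values, to which GTF3C6 contributes, the first shrank to -0.0911 and the second was reversed to 0.19, and the arithmetic mean of FPKM over the TFIIIC genes was 23.9 FPKM. GTF3A, which encodes TFIIIA, the zinc finger factor of the smallest ribosomal RNA gene, was at 23.5 and 19.8 FPKM.

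**Figure D3:**
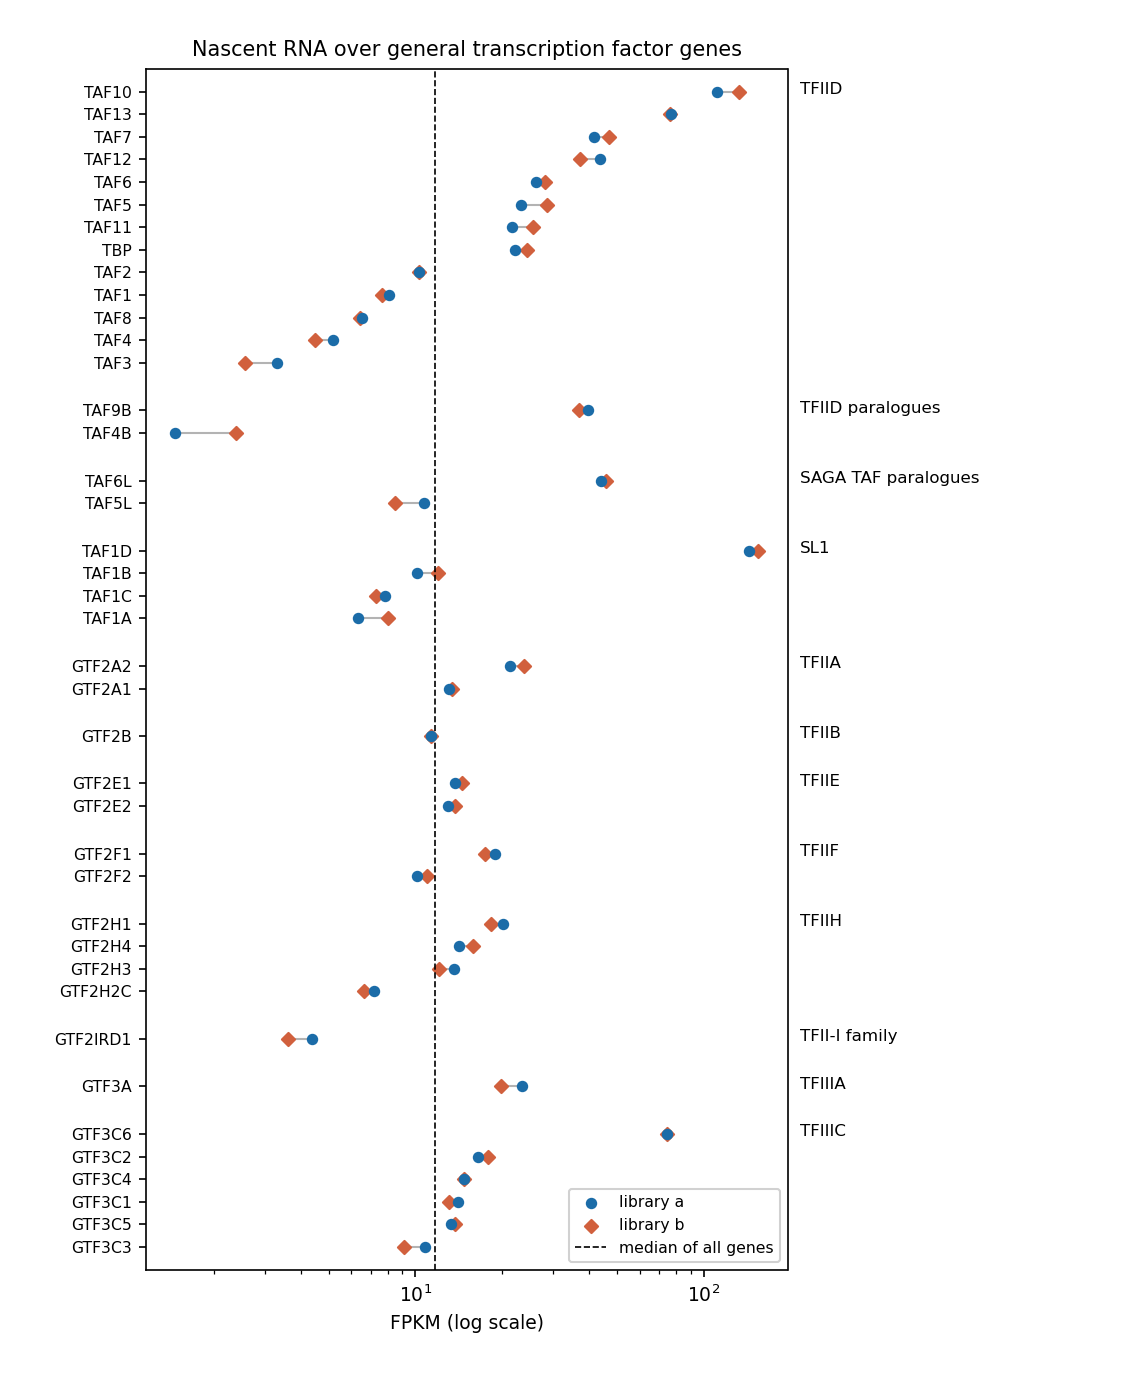
FPKM (horizontal log axis) of each measured general factor gene in library a (circles) and library b (diamonds), grouped by complex, with the median of all genes (11.7 FPKM) dashed. TFIID spreads from TAF3 to TAF10, the TFIIA to TFIIH genes stay between 6.63 and 23.8 FPKM, and 5 of 6 TFIIIC genes sit together with GTF3C6 apart at 74.6 FPKM.

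Related genes that carry other names were also examined, and all 30 had values. Their median was 15.2 FPKM. Of the 30, 19 were above the median of all genes in both libraries (63.3%, against 47.6% of all genes) and 10 were below it in both (also against 47.6%). Of TFIIIB, which places polymerase III at its start sites, BRF1 and BDP1 were below the median gene in both libraries and BRF2 was above it. BRF1 had 5.24 and 4.49 FPKM, against 12.6 and 13.65 FPKM for BRF2, the form used at promoters lying outside the gene, a log2 ratio of -1.42 ± 0.234, and BDP1 was at 7 and 5.69 FPKM. For TFIIH, the helicase gene ERCC3 (22.03 ± 2.45 FPKM), the kinase gene CDK7 (19.0 ± 2.001 FPKM), MNAT1 (18.3 ± 1.03 FPKM) and CCNH (17.2 ± 1.25 FPKM) were above the median gene and ERCC2 was below it (9.40 ± 1.05 FPKM). With these 5 genes the range of TFIIH was 3.19-fold over 9 measured genes, against 2.79-fold over the 4 members alone. Of the polymerase I cofactors, UBTF, which coats ribosomal DNA, was at 41.2 ± 2.04 FPKM, the initiation factor RRN3 at 12.3 ± 0.665 FPKM and the termination factor TTF1 at 7.64 ± 2.08 FPKM. CRCP, a polymerase III subunit named otherwise, was at 15.5 ± 0.148 FPKM, and MAF1, the repressor of polymerase III, was at 19.7 ± 1.34 FPKM.

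In the complex that reads small nuclear RNA promoters, SNAPC5 was at 43.9 ± 0.0778 FPKM and the other 4 subunit genes lay between 9.31 and 16.4 FPKM. The span of SNAPC5 overlaps MAP2K1 and holds MIR4512. Other related genes also overlap, among them BRF1 (BTBD6 and PACS2) and BRF2 (ADGRA2), and the span of UBTF holds MIR6782. The part of these genes in the values was not tested. DRAP1 (73.9 ± 0.184 FPKM) and DR1 (27.6 ± 1.16 FPKM), which together form a repressor of TBP, were in the top 25%, while BTAF1, which strips TBP from DNA, was at 9.12 ± 1.16 FPKM. TBPL1, a relative of TBP, was at 19.2 ± 1.53 FPKM. Among factors that assemble and import the enzymes, GPN2 was at 47.8 ± 5.82 FPKM, and RPAP2, a phosphatase of the POLR2A tail, was lowest at 4.91 ± 0.636 FPKM. RPAP1, GPN3, GPN1 and RPAP3 ranged from 6.78 to 19.7 FPKM. The elongation factor genes TCEA1 and TCEA2 were at 12.1 ± 1.94 and 18.7 ± 1.68 FPKM.

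Ratios were set out for 16 pairs with values in both genes. These were paralogues, equivalent subunits of different enzymes, or different subunits that are partners in a complex, such as POLR1C with POLR1D. In 16 of 16 the values of the partners did not overlap between libraries, but this holds for 93.1% of all pairs of genes in the table and so says little about these pairs. In the ranking of all members by mean FPKM, where neighbours are close by construction, 57 of the 72 neighbouring pairs had values that overlapped.

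**Figure D4:**
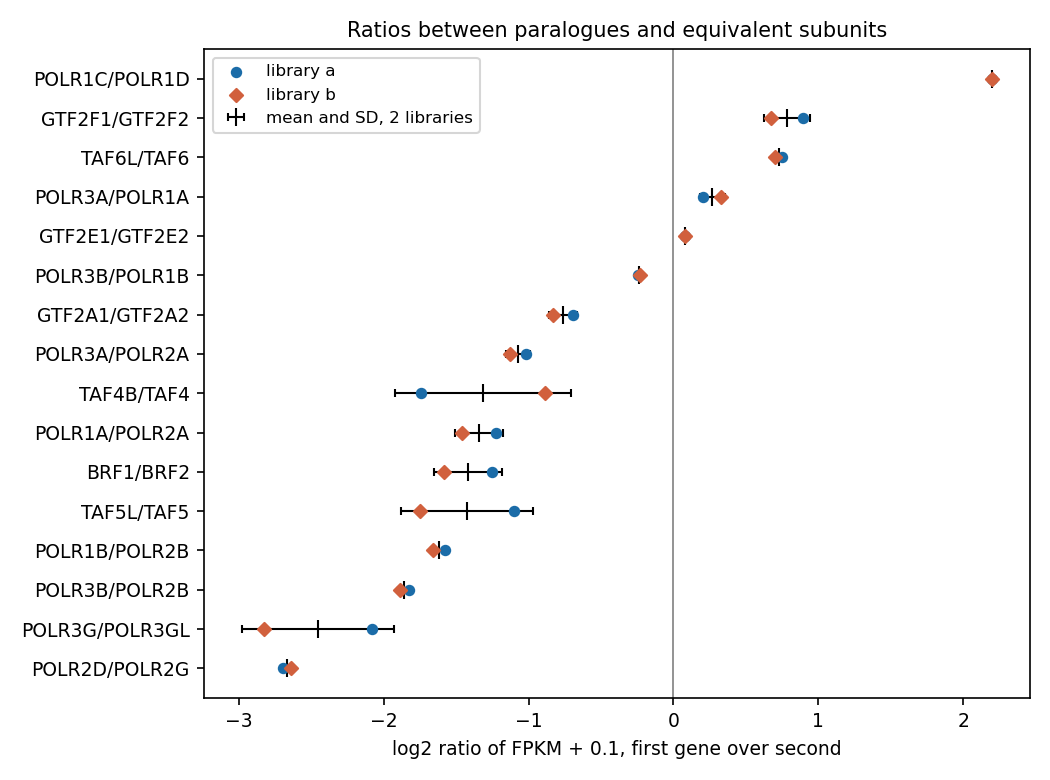
Log2 ratio of FPKM + 0.1 (horizontal axis), first gene over second, for 16 pairs of paralogues, equivalent subunits or partner subunits of a complex. Circles are library a, diamonds are library b, and bars give mean and SD of the 2 libraries. POLR1C/POLR1D, at 2.20, is the highest ratio, POLR2D/POLR2G, at -2.67, the lowest, and the pairs with POLR3G, TAF4B and TAF5L have the widest bars.

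The libraries measured the members about as closely as other genes. The median member differed by a factor of 1.08 between libraries, and the median gene by 1.098. A difference over 1.5-fold was found for 2 of 73 members (2.74%), against 2.15% of all genes. These were POLR3G, higher in library a (1.56-fold), and TAF4B, higher in library b (1.59-fold). With a pseudocount of 1 in place of 0.1, 0 members were over 1.5-fold. The next were POLR3K and POLR2E, 1.39-fold and 1.33-fold higher in library a. All 4 had mean levels below the median of all genes. In all, 43 of 73 members (58.9%) were higher in library b, against 46.4% of all genes. Among the polymerase II-specific subunits it was 6 of 7, and among polymerase III-specific subunits 8 of 10, with median log2 differences of 0.13 and 0.066.

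**Figure D5:**
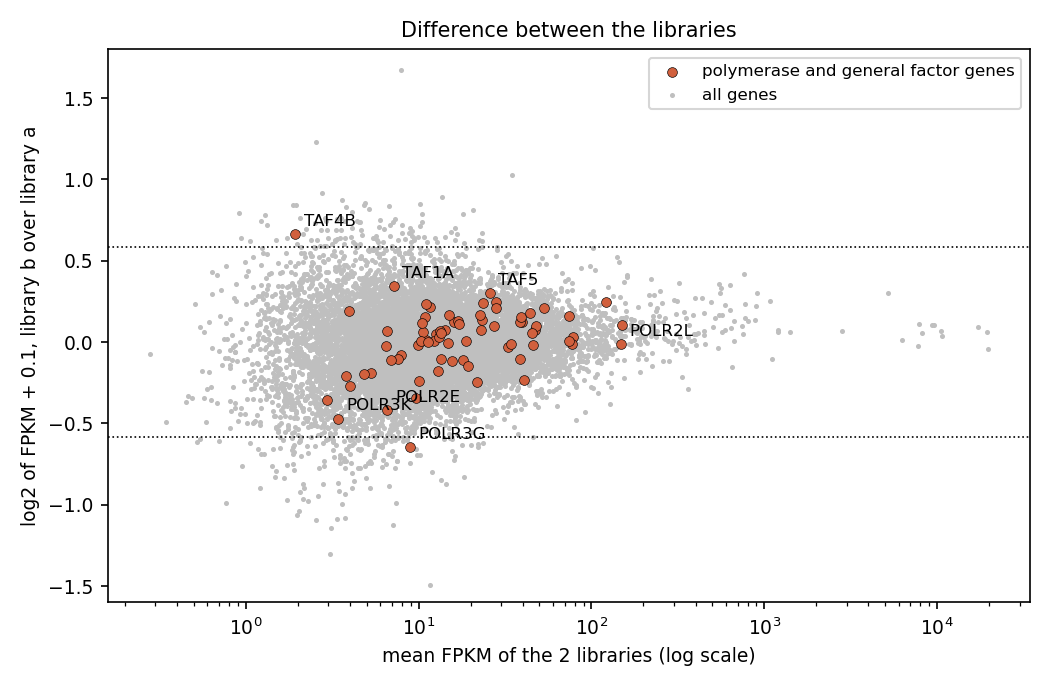
Log2 of FPKM + 0.1 in library b over library a (vertical axis) against mean FPKM (horizontal log axis) for polymerase and general factor genes (filled) and all genes (grey), with dotted lines at 1.5-fold. TAF4B and POLR3G are the 2 members outside the lines with this pseudocount (0 with a pseudocount of 1), and POLR2L lies close to 0.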

How the data were processed

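Per the submitters' processing notes, Bowtie2, HTSeq and the build hg19 were used, without versions. The deposited values are FPKM made by the authors for each library, which were not pooled. The sources used here do not give the gene length, read total, strand setting or handling of multiply mapped reads, and depth is unknown, so no counting interval is given. The column names show the group but not which numbered replicate each column is. Identifiers were paired with current symbols through an Ensembl name table (12202 of 12353 matched). A RefSeq table on GRCh38 served for gene class and overlapping genes. Overlaps were found from the annotated spans on the same chromosome, whatever the strand, and gene lengths were not used. RefSeq promoters carry GRCh38.p14 coordinates.

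Medians over each complex, differences of medians of log2(FPKM + 0.1) and log2 ratios were computed in each library with Python 3.11.15, pandas 2.3.3 and NumPy 2.4.6, and given as mean and SD over the 2 libraries. Only the difference of medians was tested on simulated data, for TFIID and polymerase III. There all genes of a complex had the same level apart from noise between libraries. The spread among genes seen here was thus absent, and ratios, counts and motif shares were not simulated. Members, complexes, pairs and related genes were chosen with earlier results of these data known. Every member, and every related gene on the list, could be named, but 1 member is not reported here by itself and enters only counts, medians and means. Alternatives were another pseudocount (1), a minimum mean FPKM of 1, each library alone, quantile normalization, means in place of medians (of FPKM for levels, of log2 values for differences), and shared or paralogous subunits included.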

Additional observations from a re-analysis of the deposited data

How the results depend on the processing

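No paired analysis was possible because there is 1 group and no test. Of 177 recomputed values, 145 moved by less than the spread between the libraries, or for counts by less than 1.5 times. That spread comes from 2 values and can be very small. Many of the 145 were fixed in advance, so their number is not a measure of stability. For differences and ratios, each library alone lies within that spread of the mean by construction, and only its sign could change. The minimum mean FPKM of 1 removed no member, as the lowest had 1.93 FPKM, so medians, differences and ratios stayed the same. With the arithmetic mean of FPKM in place of the median the level was 20.7 FPKM for polymerase I, 19.7 for polymerase III, 32.0 for TFIID, 23.9 for TFIIIC and 56.9 for the subunits shared by all 3 enzymes. With shared subunits included it was 15.6 FPKM for polymerase I and 18.8 for polymerase III. Differences of the mean of log2(FPKM + 0.1), a different mean, were -1.01 (polymerase I less II), -1.04 (III less II), -0.0302 (III less I, reversed), -0.0911 (TFIIIC less TFIID), 0.19 (TFIIIC less polymerase III, reversed) and -0.0014 (shared less polymerase II, reversed). With each library alone the last ran from -0.0066 to 0.0233 and the TFIIIC median from 14.23 to 14.38 FPKM. An alternative chosen after seeing the data left out members whose span holds a small RNA gene. It gave medians of 15.6 FPKM for polymerase I, 18.8 for polymerase III and 58.5 for the shared subunits, and log2 differences of -1.30 (I less II), -1.03 (III less II), 0.27 (III less I), -0.41 (TFIIIC less polymerase III) and 0.51 (shared less polymerase II). A pseudocount of 1 gave log2 ratios of -1.55 (POLR1B/POLR2B), -1.77 (POLR3B/POLR2B), -0.22 (POLR3B/POLR1B), 2.10 (POLR1C/POLR1D), 0.0759 (GTF2E1/GTF2E2) and -2.58 (POLR2D/POLR2G), and left 0 members over 1.5-fold between libraries. Quantile normalization gave 2.20 (POLR1C/POLR1D) and 0.0859 (GTF2E1/GTF2E2). The larger pseudocount shrinks all ratios by construction. Where members were left out or averaged differently, the cause was not tested. The planned pairs TAF9B with TAF9 and GTF2IRD1 with GTF2I were not run because the second gene has no value. Read depth is unknown, so its limit on low genes could not be given.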
